A study of Mus musculus with 4 samples.

Results

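Mitochondrial ribosomal protein genes are nuclear genes whose products build the ribosome inside mitochondria. They were taken here as the protein-coding genes of the RefSeq mouse gene table whose symbol is Mrpl or Mrps followed by a number and, in some, a letter. The rule used names and no measured value, and it gave 78 of the 21887 protein-coding genes on chromosomes 1 to 19, X and Y. Of these, 49 carry an Mrpl symbol (named for the large subunit) and 29 an Mrps symbol (named for the small subunit). The members lay on 17 chromosomes, with 11 of them on chromosome 11. CTCF binding in mouse embryos labelled embryonic day 13.5 was mapped by ChIP-seq, in which DNA bound to the protein is pulled down with an antibody (here a rabbit antibody against CTCF) and sequenced. One CTCF library came from the telencephalon and 1 from the medial ganglionic eminence (MGE), the ventral swelling of the telencephalon where many cortical interneurons are born. Neither genotype nor strain is given in the sources used here, and the labels do not say how many embryos were pooled. Input libraries of both tissues are not analysed here. The track header of the telencephalon list starts its name with e14, and the labels speak of MGE dissection for both tissues, so the age and the extent of the telencephalon tissue rest on the labels alone.

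The mitochondrial ribosome translates the few proteins encoded by mitochondrial DNA, all of them subunits of the respiratory chain and the ATP synthase. Its own proteins are encoded in the nucleus, translated in the cytoplasm and imported. Some have counterparts in the bacterial ribosome and others arose later. CTCF is a zinc finger protein that binds a long DNA motif, and many of its sites lie at loop anchors and domain borders, while others lie at promoters of broadly active genes.

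The deposited lists give the position of each peak and no height, so a peak is described by its place and width. The MGE list had 25625 peaks and the telencephalon list 31886 on the chromosomes used. The narrowest MGE peaks were 244 bp wide and the narrowest telencephalon peaks 150 bp, so the telencephalon list reaches down to narrower peaks. The track names end in p001 for telencephalon and p01 for MGE, and their meaning is not stated. There was 1 library per tissue, and the libraries were made with the NEB ChIP-Seq kit for telencephalon and NEBNext Ultra II for MGE, so tissue, kit, depth and calling threshold cannot be told apart. No test between tissues was possible. Intervals are exact 95% Clopper-Pearson intervals and cover counting error alone.

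The promoters of Mrpl34, Mrpl17, Mrpl20 and Mrpl39 carry the sequence side of what follows, and each is shown 5′ to 3′ on the strand of its gene as the bases just before the annotated start, from RefSeq on GRCm38.p6 (the coordinates of mm10). Capitals mark matches to 3 sets of letters, searched on both strands. The CTCF core was CCA, any 2 bases, AG, any 2 bases and GGC. The right side of the CTCF motif was AGNNGGCGC, which begins with the last letters of the core, so a single place can match both. The NRF1 motif is the same on both strands, and its letters are those in capitals at Mrpl39. The right side was added after the sequences had been seen. Mrpl34 (chr8:71464678-71464925, plus strand) and Mrpl17 (chr7:105811088-105811337, minus strand) are shown because peaks of both lists cover them (at Mrpl34, 244 of the 248 bases in MGE) and they hold CTCF letters. The windows of Mrps33 and of one start of Mrps16 were covered about as fully by both lists but held no CTCF letters, and are not printed. The Mrps2 window is not printed either. It held letters of the right side, with 300 bases under an MGE peak and 225 under a telencephalon peak. Mrpl20 (chr4:155802628-155802877, plus strand) holds the core and had no peak nearby in either list. Mrpl39 (chr16:84735245-84735494, minus strand) was covered by a telencephalon peak and by no MGE peak.
Mrpl34: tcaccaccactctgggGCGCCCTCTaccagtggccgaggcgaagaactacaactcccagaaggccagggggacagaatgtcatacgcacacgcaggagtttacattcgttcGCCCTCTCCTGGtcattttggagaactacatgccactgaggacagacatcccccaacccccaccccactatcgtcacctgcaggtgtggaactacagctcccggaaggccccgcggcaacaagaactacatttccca
Mrpl17: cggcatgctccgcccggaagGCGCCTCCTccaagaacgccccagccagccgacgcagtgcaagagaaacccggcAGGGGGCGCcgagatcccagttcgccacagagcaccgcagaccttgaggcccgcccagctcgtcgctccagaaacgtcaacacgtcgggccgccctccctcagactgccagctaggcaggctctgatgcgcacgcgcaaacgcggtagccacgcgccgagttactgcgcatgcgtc
Mrpl20: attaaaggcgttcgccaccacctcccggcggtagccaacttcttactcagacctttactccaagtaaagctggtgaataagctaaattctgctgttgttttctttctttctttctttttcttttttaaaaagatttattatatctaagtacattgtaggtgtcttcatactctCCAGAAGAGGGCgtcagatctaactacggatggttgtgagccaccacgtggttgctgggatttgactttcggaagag
Mrpl39: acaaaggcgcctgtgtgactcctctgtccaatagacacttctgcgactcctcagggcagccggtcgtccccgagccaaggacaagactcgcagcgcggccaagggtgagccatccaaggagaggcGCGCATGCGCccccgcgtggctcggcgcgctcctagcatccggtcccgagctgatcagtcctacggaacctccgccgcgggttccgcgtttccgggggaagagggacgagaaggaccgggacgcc

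CTCF peaks stood at the ends of 12 mitochondrial ribosomal protein genes in MGE and 21 in telencephalon. All 12 MGE genes were among the 21. A gene end here means a peak overlapping the 1 kb on either side of an annotated end. The MGE count is 15.4% of the 78 genes (interval 8.21 to 25.3%), beside 12.1% of all protein-coding genes. The telencephalon count is 26.9% (17.5 to 38.2%), beside 19.3% of all protein-coding genes. A gene-end peak in both lists was found for 15.4% of the members and 10.5% of all protein-coding genes. Each background share lay inside the members' interval, so with this window the members' counts are near the background. Short genes were compared as well, because the members had a median length of 7690 bp against 17169 bp for all protein-coding genes. Among the 4952 protein-coding genes between 4000 and 12547 bp long, the middle 50% of member lengths, 13.2% carried such a peak in MGE and 21% in telencephalon.

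**Figure D1:**
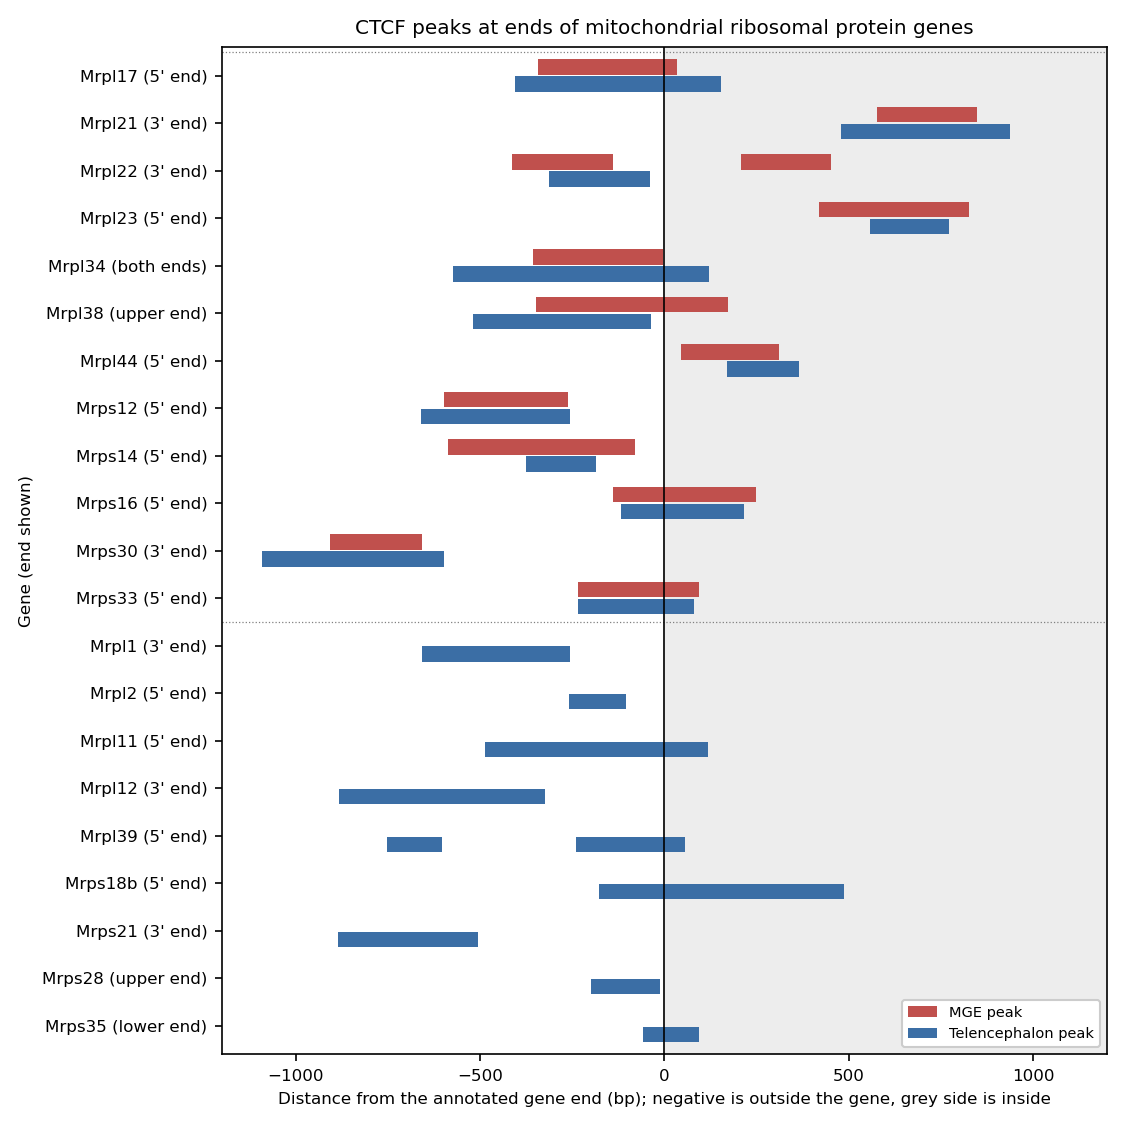
CTCF peaks at the ends of the 21 genes that have one, drawn as bars by distance from the annotated gene end in bp (negative is outside the gene and the grey side is inside), with MGE peaks in red and telencephalon peaks in blue. The 12 genes above the dotted line have a peak in both lists, and the 9 below it have telencephalon peaks only.

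Large-subunit genes with a gene-end peak in both lists were Mrpl17, Mrpl21, Mrpl22, Mrpl23, Mrpl34, Mrpl38 and Mrpl44. Mrpl17 encodes a counterpart of a bacterial large-subunit protein and lies on the minus strand at chr7:105803782-105811087. Its start was covered by a peak of 378 bp in MGE (chr7:105811054-105811431) and 558 bp in telencephalon (chr7:105810934-105811491). The MGE peak lay wholly inside the telencephalon peak, and both lists covered all 250 bases printed above. Mrpl34 is a very short gene of 828 bp (chr8:71464926-71465753), so its peak counts for both of its ends. The MGE peak (chr8:71464569-71464921, 353 bp) stopped 5 bp before the gene, and the telencephalon peak (chr8:71464354-71465046, 693 bp) ran over its start. The latter was the widest telencephalon peak near any member. Abhd8 has an end within 1 kb of the same peaks, so they cannot be assigned to one gene.

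Mrpl22 and Mrpl23 encode proteins that sit around the exit of the nascent peptide. Mrpl22 (chr11:58170043-58179580) had its peaks at the 3′ end. The shared pair was 273 bp wide in MGE (chr11:58179721-58179993) and 272 bp in telencephalon (chr11:58179621-58179892), with 172 bp in common. A second MGE peak of 244 bp (chr11:58179129-58179372), inside the gene, overlapped no telencephalon peak. Mrpl23 (chr7:142532467-142540747) carried a peak of 406 bp in MGE (chr7:142532887-142533292) and 215 bp in telencephalon (chr7:142533025-142533239), which covered an annotated start site inside the gene. Inside the gene there was also a shared pair of 408 bp (chr7:142537893-142538300) and 322 bp (chr7:142537973-142538294). Mrpl23 lies 34783 bp from the imprinted gene H19, and neither list had a peak between them.

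The other 3 large-subunit genes of this group had their peaks at different places. Mrpl44, whose protein has a ribonuclease III fold, had peaks just inside its 5′ end, 265 bp wide in MGE (chr1:79776063-79776327) and 194 bp in telencephalon (chr1:79776189-79776382). The neighbouring gene Wdfy1 has an end there too. Mrpl38 (chr11:116131817-116138868), a protein of the central protuberance, had peaks over or beside its upper end, 521 bp in MGE (chr11:116138697-116139217) and 483 bp in telencephalon (chr11:116138904-116139386). Its strand is not in the promoter table. Mrpl21 (chr19:3282997-3292837) had peaks inside its 3′ end, 271 bp in MGE (chr19:3291991-3292261) and 456 bp in telencephalon (chr19:3291902-3292357).

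Small-subunit symbols with a gene-end peak in both lists were Mrps12, Mrps14, Mrps16, Mrps30 and Mrps33. Mrps12 encodes the counterpart of a bacterial decoding-site protein and lies at chr7:28739641-28741821 on the minus strand. The peaks before its start were 336 bp wide in MGE (chr7:28742083-28742418) and 406 bp in telencephalon (chr7:28742077-28742482). They lie within Sars2, which encodes the mitochondrial seryl-tRNA synthetase, so the same peaks stand at the ends of 2 genes of mitochondrial translation. Mrps14 (chr1:160195215-160201186) had a peak of 508 bp before its start in MGE (chr1:160194628-160195135), and the 189 bp telencephalon peak (chr1:160194840-160195028) lay wholly inside it.

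Mrps16 and Mrps33 were covered at the start in both lists. At Mrps16, the counterpart of a bacterial small-subunit protein (chr14:20391222-20393634), the peaks were 389 bp (chr14:20393386-20393774) and 334 bp wide (chr14:20393419-20393752) in MGE and telencephalon. Cfap70 has an end within 1 kb of them. At Mrps33 (chr6:39801804-39810936) they were nearly equal, at 326 bp (chr6:39810844-39811169) and 315 bp (chr6:39810857-39811171), with 313 bp in common. Mrps30, named for the small subunit although its protein is found in the large subunit, had peaks beyond its 3′ end. They were 252 bp wide in MGE (chr13:118379203-118379454) and 495 bp in telencephalon (chr13:118379018-118379512).

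Another 9 genes (11.5%, beside 8.79% of all protein-coding genes) carried a gene-end peak in telencephalon and none in MGE. No member showed the reverse, and 1.58% of all protein-coding genes did. The widest of these telencephalon peaks were at Mrps18b (chr17:35915953-35916618, 666 bp), Mrpl11 (chr19:4961667-4962270, 604 bp) and Mrpl12 (chr11:120489078-120489636, 559 bp). Mrpl11 and Mrpl12 encode proteins of the stalk that recruits translation factors, and Mrps18b is one of 3 members of the S18 family here. The nearest MGE peaks lay 21145 bp, 19509 bp and 25909 bp from these peaks. The Mrps18b peak also stands at an end of Ppp1r10, a regulator of protein phosphatase.

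The peaks at Mrpl1 (chr5:96266984-96267383, 400 bp) and Mrps21 (chr3:95861749-95862129, 381 bp) were also wider than the narrowest MGE peak. They lay beyond the 3′ ends, and MGE peaks were 66587 bp and 44802 bp away. Mrpl39 had a peak over its start (chr16:84735190-84735482, 293 bp) and a narrow one of 150 bp further out (chr16:84735848-84735997). The nearest MGE peak to Mrpl39 was 143966 bp from the gene, farther than for any other member with a telencephalon gene-end peak. The remaining peaks, at Mrps28 (188 bp), Mrpl2 (155 bp) and Mrps35 (151 bp), were narrower than any MGE peak. The Mrpl2 peak also stands at an end of Klc4. In all, 4 of the 10 unshared telencephalon gene-end peaks were narrower than 244 bp. At the ends of all protein-coding genes 1051 of 2005 unshared telencephalon peaks were. The part of peak width limits or calling thresholds in these differences was not tested.

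Inside the 1 kb limit, the gene-end peak farthest from its gene was the MGE peak 656 bp beyond Mrps30. Just outside it were peaks 1021 bp (MGE) and 1070 bp (telencephalon) from the other end of Mrpl38. Telencephalon peaks lay 1097 bp from Mrpl44, 1102 bp from Mrps23 and 1103 bp from Mrps21, and an MGE peak 1111 bp from Mrpl40. Of these genes, Mrps23 and Mrpl40 had no gene-end peak in either list.

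Where strand is known, more of the members' gene-end peaks lay at the 5′ end than at the 3′ end. The same split over all protein-coding genes was not counted, so it is not read as particular to the members. In the MGE list 7 of 13 member gene-end peaks lay at a 5′ end, 4 at a 3′ end, 1 at Mrpl34 over both and 1 at Mrpl38 with no strand given. In the telencephalon list 12 of 22 lay at a 5′ end and 6 at a 3′ end, with 1 over both and 3 at genes of unknown strand. A peak covered an annotated start site in 5 of the 69 members with one in the MGE list (7.25%), beside 3.81% of 17492 protein-coding genes. In the telencephalon list 8 of 69 did (11.6%), beside 5.96%. One of these genes, Mrps2, had its peaks over a start site inside the annotated gene, 425 bp in MGE (chr2:28467770-28468194) and 225 bp in telencephalon (chr2:28467891-28468115), and is not among the genes with a gene-end peak.

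The wider window took in the gene and 10 kb on each side. In it 40 of 78 members had an MGE peak (51.3%, interval 39.7 to 62.8%), and the share over all protein-coding genes was also 51.3%. In the telencephalon list 55 of 78 had one (70.5%, 59.1 to 80.3%), beside 61.3% of all protein-coding genes. Both lists had a peak for 39 members (50%, beside 45.9%). The MGE count equals the share over all protein-coding genes, and the telencephalon share over all genes lay inside the members' interval. Among the 4952 genes of similar length the shares were lower, at 43.9% in MGE and 57.4% in telencephalon. The first lay inside the members' interval and the second below it, so for telencephalon the reading depends on which genes are taken as the background. With 20 kb on each side, 71.8% of members had an MGE peak (60.5 to 81.4%, beside 63.3% of all protein-coding genes) and 83.3% a telencephalon peak (73.2 to 90.8%, beside 71.1%). The telencephalon background lay below the members' interval there too. Telencephalon peaks alone were found for 16 members (20.5%, beside 15.4%), and MGE peaks alone for 1 member (1.28%, beside 5.44%). That member was Mrpl3, which encodes a core protein of the large subunit (chr9:105053268-105077466). It had a pair of MGE peaks inside the gene, at chr9:105072890-105073133 and chr9:105073234-105073477. Each was 244 bp wide, the narrowest width of that list, and the nearest telencephalon peak lay 35143 bp from the gene.

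A window peak in both lists without one at a gene end was found for 25 members. They were Mrpl4, Mrpl13, Mrpl14, Mrpl15, Mrpl16, Mrpl32, Mrpl35, Mrpl40, Mrpl41, Mrpl42, Mrpl45, Mrpl46, Mrpl49, Mrpl52, Mrpl53, Mrps2, Mrps7, Mrps10, Mrps11, Mrps17, Mrps18a, Mrps23, Mrps26, Mrps27 and Mrps31. Another 9 had window peaks in telencephalon alone and none at a gene end, namely Mrpl9, Mrpl19, Mrpl24, Mrpl28, Mrpl43, Mrpl48, Mrps5, Mrps9 and Mrps15. The share of all protein-coding genes in these classes was not counted, so the counts only list the members.

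**Figure D2:**
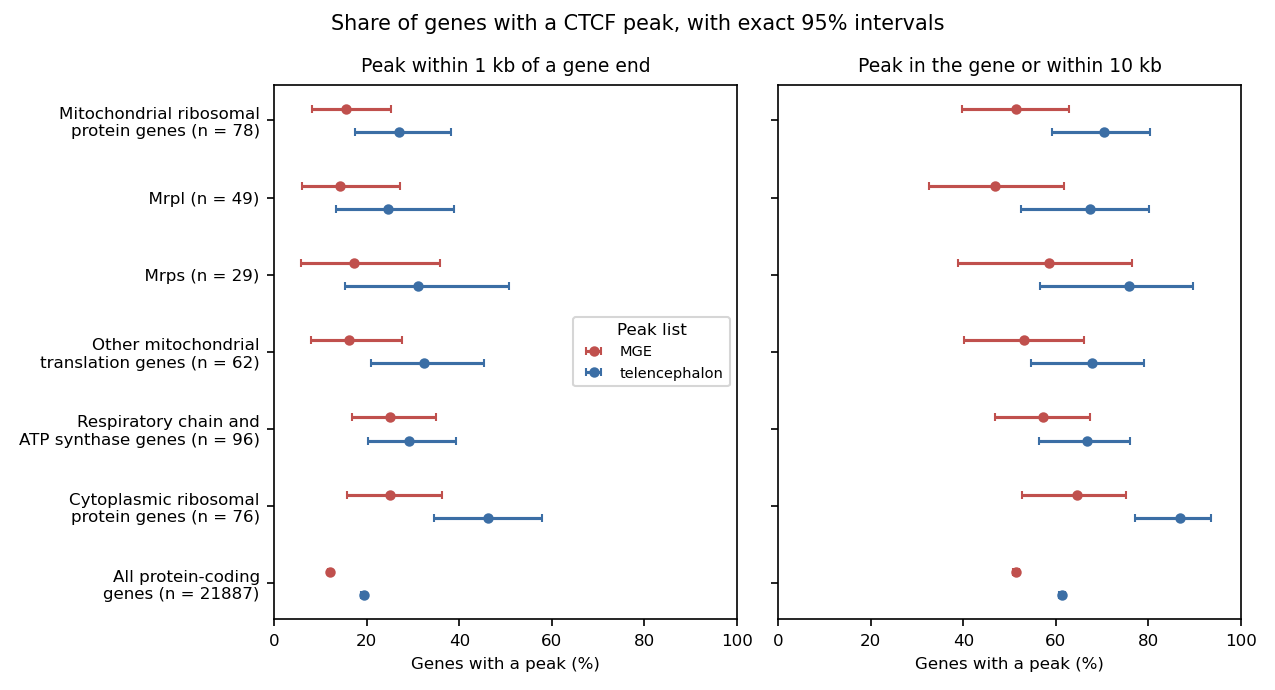
Share of genes in percent with a CTCF peak within 1 kb of a gene end (left) and in the gene or within 10 kb (right), for the MGE list in red and the telencephalon list in blue, with bars for exact 95% intervals. The share over all protein-coding genes lies inside the members' interval in each list and panel, and cytoplasmic ribosomal protein genes have the highest telencephalon shares.

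The counts by symbol lay close together. The symbols are not a strict split by subunit. Mrps30, for example, counts as Mrps although its protein is found in the large subunit. Gene-end peaks were found for 7 of 49 Mrpl genes (14.3%, interval 5.94 to 27.2%) and 5 of 29 Mrps genes (17.2%, 5.85 to 35.8%) in MGE. In telencephalon they were found for 12 of 49 (24.5%, 13.3 to 38.9%) and 9 of 29 (31%, 15.3 to 50.8%). The intervals overlapped widely in both lists. Members with a counterpart in bacteria had a telencephalon gene-end peak in 15 of 48 cases (31.2%) and the others in 6 of 30 (20%). In MGE these counts were 8 of 48 (16.7%) and 4 of 30 (13.3%). The intervals overlapped here too (18.7 to 46.3% against 7.71 to 38.6% in telencephalon).

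Peaks near the members were mostly common to the tissues when seen from the MGE list. The members' 10 kb windows held 55 different MGE peaks, of which 49 overlapped a telencephalon peak (89.1%, interval 77.8 to 95.9%). In the windows of all protein-coding genes 68.5% of MGE peaks did, and 58.4% of all MGE peaks did. From the telencephalon side, 49 of 100 peaks were shared (49%, 38.9 to 59.2%), beside 48.1% in the windows of all protein-coding genes. The interval of the MGE share lay above both background shares, and that of the telencephalon share included its own. At members' gene ends 12 of 13 MGE peaks were shared (92.3%, 64 to 99.8%). The share at the ends of all protein-coding genes was 85.5%, inside that interval. Away from members' ends 37 of 42 were shared (88.1%, 74.4 to 96%), with no matching background counted. Peaks in one window are not independent, neither background was matched for gene length, and the difference was not tested. MGE peaks of the narrowest width made up 9 of the 55. They made up 3735 of the 15738 in the windows of all protein-coding genes, and 7399 of all 25625. With the wider 50% of the peaks of each list, 29 of 36 MGE peaks near members were shared (80.6%), with no background counted.

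The shared pairs lay almost on top of each other. Midpoints of the 49 pairs were a median of 37 bp apart, beside 47.5 bp for all 15042 shared pairs of the series. The telencephalon peak was the wider one in 25 pairs and the MGE peak in 24. Median widths were 353 bp in MGE and 334 bp in telencephalon. The 51 unshared telencephalon peaks were narrower, with a median of 235 bp, and 29 of them were under 244 bp. In the windows of all protein-coding genes the median of unshared telencephalon peaks was 225 bp, and 6834 of 11619 were under 244 bp. The narrower width is therefore not particular to the members.

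**Figure D3:**
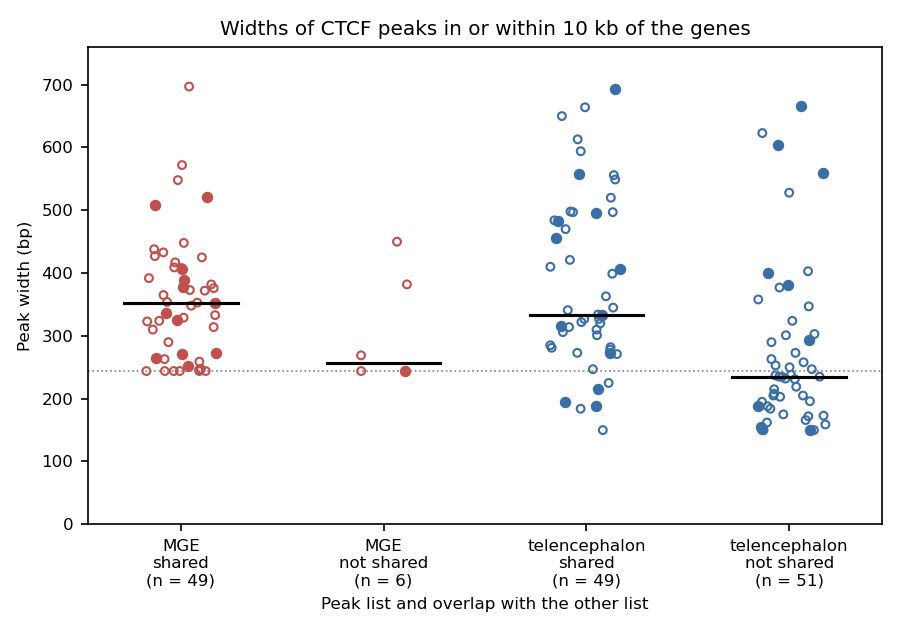
Widths in bp of CTCF peaks in or within 10 kb of mitochondrial ribosomal protein genes, by list and by overlap with the other list, with black lines at medians, filled points for gene-end peaks and a dotted line at the narrowest MGE width (244 bp). Unshared telencephalon peaks lie lower than shared ones (median 235 against 334 bp), and several gene-end peaks among them exceed 500 bp. In the windows of all protein-coding genes these medians are 225 and 354 bp.

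The 6 MGE peaks without a telencephalon partner lay at 5 members. They were the pair inside Mrpl3, the second peak at the 3′ end of Mrpl22, and single peaks in the flanks of Mrpl13, Mrps7 and Mrps33. The widest was the Mrpl13 peak (chr15:55563694-55564143, 450 bp), which lies in Mtbp and was 12656 bp from a telencephalon peak. The Mrps33 peak (chr6:39817606-39817987) was 382 bp wide and 6435 bp from one. The Mrps7 peak (chr11:115595286-115595554) was 269 bp wide and 17094 bp from one.

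The widest peaks near members lay away from gene ends in MGE. Mrpl45, whose protein tethers the ribosome to the inner mitochondrial membrane, had the widest MGE peak, 697 bp inside the gene (chr11:97328078-97328774), with a telencephalon partner of 497 bp (chr11:97328129-97328625). The next were 572 bp in the flank of Mrps23 (chr11:88187574-88188145) and 548 bp in the flank of Mrpl17 (chr7:105818579-105819126), followed by the gene-end peaks of Mrpl38 and Mrps14. In telencephalon the order after Mrpl34 and Mrps18b was 664 bp in the flank of Mrpl14 (chr17:45677951-45678614), 650 bp in the flank of Mrps23 (chr11:88216083-88216732) and 623 bp in the flank of Mrpl45 (chr11:97310124-97310746). The Mrpl14 and Mrps23 peaks were shared and the Mrpl45 flank peak was not.

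Some members had several peaks. Mrps23 had the most, with 3 in MGE and 5 in telencephalon, and each of the 3 MGE peaks had a partner. Mrps28, the longest member at 121712 bp, had 1 and 5. Mrps10 and Mrpl17 had 2 and 4 each. Mrpl45 had 1 and 4, Mrpl13 3 and 2, and Mrpl15 and Mrpl23 2 and 3 each. Members with 2 or more peaks in the window made up 17.9% in MGE (all protein-coding genes 22.5%) and 37.2% in telencephalon (all protein-coding genes 35.2%). Mrpl46 and Mrps11 lie only 42 bp apart, with their starts on either side of this gap and transcription running away from it. Their windows shared a pair of peaks inside Mrps11, 263 bp wide in MGE (chr7:78791472-78791734) and 363 bp in telencephalon (chr7:78791435-78791797).

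The remaining 22 members (28.2%) were without a peak of either list in this window. Among all protein-coding genes 33.3% had none. These 22 were Mrpl10, Mrpl18, Mrpl20, Mrpl27, Mrpl30, Mrpl33, Mrpl36, Mrpl37, Mrpl47, Mrpl50, Mrpl51, Mrpl54, Mrpl55, Mrpl57, Mrpl58, Mrps6, Mrps18c, Mrps22, Mrps24, Mrps25, Mrps34 and Mrps36. Mrpl58 encodes a peptidyl-tRNA hydrolase built into the large subunit, and the Mrps36 protein is known as a part of the oxoglutarate dehydrogenase complex. Their nearest peak of either list was between 11457 and 75308 bp away. Farthest from any peak were Mrps36 (75651 bp in MGE and 75308 bp in telencephalon), Mrps24 (66198 and 70882 bp), Mrpl37 (65921 and 66001 bp), Mrpl50 (46496 and 46492 bp) and Mrpl33 (46154 and 50080 bp). The lists hold only positions that passed calling, so weaker binding at these genes was not tested. Just inside the 10 kb limit were the peaks of Mrpl41, 9932 bp away in MGE and 9959 bp in telencephalon, and just outside it for both lists were those of Mrpl10, at 11515 and 11457 bp. Of the members with window peaks in telencephalon alone, Mrpl19 had an MGE peak 10050 bp away, 50 bp past the limit, and Mrpl43 had one at 10791 bp.

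Over all 78 members the nearest MGE peak was a median of 9596 bp from the gene, beside 9087 bp for all protein-coding genes. For telencephalon peaks the medians were 3125 and 3424 bp. Members more than 50 kb from a peak were 9 of 78 in MGE (11.5%, all protein-coding genes 19.7%) and 6 of 78 in telencephalon (7.69%, all protein-coding genes 17.2%). Peaks overlapped the gene itself for 17 members in MGE (21.8%, all protein-coding genes 31.4%) and 21 in telencephalon (26.9%, all protein-coding genes 39.1%). Members also had a lower median gene length, as given above. The part of gene length in these shares and distances was not tested.

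**Figure D4:**
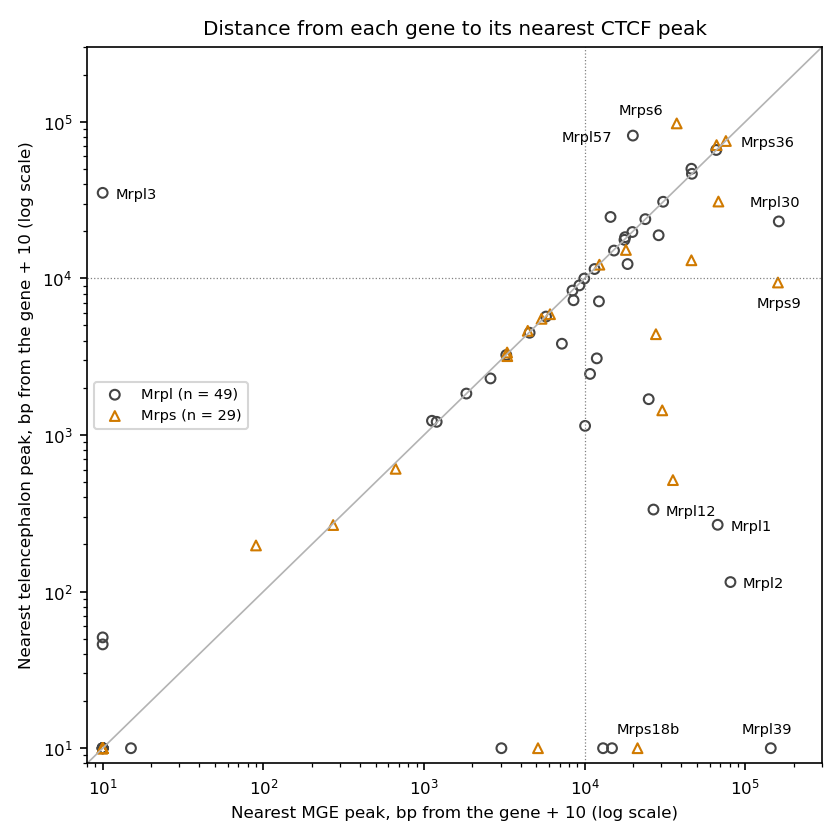
Distance in bp from each of the 78 genes to its nearest MGE peak (horizontal) and nearest telencephalon peak (vertical), with 10 bp added so that overlapping peaks appear on the log axes, circles for Mrpl and triangles for Mrps genes, dotted lines at the 10 kb limit and a grey line at equality. Many genes lie on or near the line, genes such as Mrpl39 and Mrpl2 lie far below it, and Mrpl3 stands farthest above it.

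The members had close neighbours more often than genes in general. For 44 of 78 members (56.4%) another protein-coding gene had an end within 1 kb of an end of the member, beside 24.8% of all protein-coding genes. Among all protein-coding genes, those with such a neighbour had a gene-end peak more often, at 27.1% against 16.8% in telencephalon and 16% against 10.8% in MGE. Among members the order was the other way round, with 9 of 44 (20.5%, interval 9.8 to 35.3%) against 12 of 34 (35.3%, 19.7 to 53.5%) in telencephalon and 6 of 44 (13.6%) against 6 of 34 (17.6%) in MGE. The members' intervals overlapped. With peaks at the end of another protein-coding gene set aside, 8 members kept a gene-end peak in MGE (10.3%, beside 9.68% of all protein-coding genes under the same filter) and 15 in telencephalon (19.2%, beside 14.9%).

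Promoter letters were read in windows of 250 bases before to 50 after each RefSeq start, which were at hand for 69 members (75 windows). The CTCF core was in 2 of 75 windows (2.67%), at Mrpl34 and Mrpl20, beside 2.34% of 21263 windows of all protein-coding genes. Across all genes the core was in 13.6% of windows overlapped by an MGE peak and 1.8% of the others, and in 10.9% and 1.59% for telencephalon peaks. At Mrpl34 the match began 137 bases before the start, on the other strand, under the peaks of both lists. At Mrpl20 (chr4:155802878-155808831) it began 77 bases before the start, but the nearest peaks were 18484 bp (MGE) and 12328 bp (telencephalon) away.

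The right side of the motif was in 5 of 75 member windows (6.67%), at Mrpl12, Mrpl17, Mrpl34, Mrpl57 and Mrps2, beside 9.18% of all windows. Peaks of both lists overlapped 3 of these, at Mrpl17, Mrpl34 and Mrps2. At Mrpl17 matches began 230 bases before the start on the other strand and 176 bases before it on the gene's strand. At Mrpl34 one began 232 bases before the start on the other strand. Over all genes 38.8% of windows overlapped by an MGE peak held these letters, and 7.76% of the others did. For telencephalon peaks the shares were 28.7% and 7.47%. The remaining member windows under peaks, at Mrps14, Mrps16, Mrps33, Mrpl23, Mrpl44, Mrpl39, Mrps18b, Mrpl2 and Mrpl11, held neither set of letters. Sequence outside the windows was not searched, and no match says only that these letters are not in the window.

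Letters bound by other promoter factors were also counted. The intervals treat the 75 windows as independent, although genes with several starts count more than once. The windows of Mrpl2 overlap each other, as do those of Mrps16. The ETS letters CCGGAAG were in 26 of 75 member windows (34.7%, interval 24 to 46.5%), beside 11.6% of all windows. The YY1 letters AAGATGGCG were in 8 of 75 (10.7%, 4.72 to 19.9%), beside 1.83%. The NRF1 letters were in 3 of 75 (4%, 0.833 to 11.2%), beside 1.33%, and Mrpl39 was one of these. The CCAAT letters were in 30 of 75 (40%), beside 38.2%. Member windows had a median of 21 CG pairs and a GC content of 58.7%, beside 13 and 56.3% for all windows. A letter match is a description of the sequence and does not show binding.

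The other genes of mitochondrial translation had gene-end peaks about as often as the members. Of 63 listed genes 62 were matched. In MGE 10 had one (16.1%, interval 8.02 to 27.7%), beside 12.1% of all protein-coding genes. In telencephalon 20 had one (32.3%, 20.9 to 45.3%), beside 19.3%, which lay below this interval. By role, telencephalon gene-end peaks were at 7 of 16 translation factors (43.8%) and 7 of 20 aminoacyl-tRNA synthetases and their partners (35%). They were also at 4 of 21 assembly factors (19%) and 2 of 5 mitochondrial ribosomal proteins with other symbols (40%). Both lists had one at 8 genes (12.9%, beside 10.5% of all protein-coding genes). Aurkaip1, a small-subunit protein under another symbol, had peaks at both ends, 355 and 475 bp in MGE and 262 and 303 bp in telencephalon. Mrm1, a ribosomal RNA methyltransferase, had peaks of 519 and 389 bp in MGE and 393 and 283 bp in telencephalon at its ends.

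Among the translation factors, Gfm1, an elongation factor, had the widest peak of this list in MGE (chr3:67429448-67430197, 750 bp), with a partner of 410 bp. Tsfm, another elongation factor, had peaks of 321 and 480 bp, and Mtrf1l, a release factor, had a pair of 244 and 335 bp and another MGE peak of 244 bp. Gatb, a subunit of the amidotransferase that makes glutaminyl-tRNA, had 294 and 559 bp. Mrm2, another ribosomal RNA methyltransferase, had 353 and 380 bp. Sars2 carried the peaks described at Mrps12. Iars2 and Mrrf had a gene-end peak in MGE (299 and 244 bp) and not in telencephalon.

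Beside these, genes of the respiratory chain and ATP synthase (96, assembly factors included) had gene-end peaks in 25% of cases in MGE (interval 16.7 to 34.9%) and 29.2% in telencephalon (20.3 to 39.3%). Cytoplasmic ribosomal protein genes (76 by symbol) had them in 25% (15.8 to 36.3%) and 46.1% (34.5 to 57.9%). Over all protein-coding genes the shares were 12.1% and 19.3%, below the intervals of both groups in each list. In the 10 kb window the cytoplasmic genes reached 64.5% and 86.8%, against 51.3% and 70.5% for the mitochondrial ones. All protein-coding genes had 51.3% and 61.3% there. The intervals of the ribosomal protein groups overlapped in each list and window, and the differences were not tested.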

How the data were processed

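CTCF ChIP-seq peak lists of 1 telencephalon and 1 MGE library were used, as deposited by the authors: a chromosome, start and end per peak, with no score. Alignment and calling software named in the submitters' processing notes is Bowtie2 2.3.2 with MACS2 2.1.1.20160309, on build mm10. How peaks were thresholded, controlled and filtered is not given in the sources used here, and read depth is unknown. Per the labels' protocols the library kits differed between the tissues. Sequences other than chromosomes 1 to 19, X and Y, with 85 MGE and 93 telencephalon peaks, were set aside. Starts were converted to 1-based positions. Peaks of different lists with at least 1 bp in common were called shared. Genes came from the RefSeq table of GRCm38.p6, and strands, start sites and promoter sequences from its promoter windows, which matched 69 of 78 members. No protein sequences were used here. Counts were made in Python 3.11.15 with pandas 2.3.3 and SciPy 1.17.1, and interval counting was checked on simulated data. With 1 library per tissue no test was run.

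Genes named were those with a gene-end peak, the 5 with the widest or the most peaks, the 5 farthest from peaks, those next to a window limit and pathway genes with gene-end peaks in both lists. Others, such as members with unshared MGE peaks or motif letters, were named after their values were seen. The members and lists were chosen with earlier results of these data known. Alternatives varied the windows, the peaks kept, the overlap and the genes counted.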

Additional observations from a re-analysis of the deposited data

How the results depend on the processing

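Of 40 alternative values for 7 results, 33 stayed within 1.5 times the count reported or within the interval of the share. This tally includes MGE counts with lists of equal size, which could not move because the MGE list is the shorter one. It also leaves the background aside, so it does not say whether the comparison with all protein-coding genes held. With gene ends taken as 5 kb, 28 members had a peak in MGE (35.9%, all protein-coding genes 29.6%), 44 in telencephalon (56.4%, interval 44.7 to 67.6%, all protein-coding genes 40.9%) and 27 in both lists (34.6%, all protein-coding genes 25.7%). With the wider 50% of peaks, 6 members kept gene-end peaks in both lists (7.69%, all protein-coding genes 6.94%), closer to the background than with all peaks (15.4 and 10.5%). In the gene body alone, 17 members had an MGE peak and 21 a telencephalon peak (26.9%, interval 17.5 to 38.2%, all protein-coding genes 39.1%). For the 10 kb window in telencephalon, the background also lay below the members' interval with the wider 50% of peaks (56.4%, 44.7 to 67.6%, beside 44.5%) and with lists of equal size (67.9%, 56.4 to 78.1%, beside 56.2%). With an overlap of at least 50% of both peaks, 76.4% of MGE peaks near members were shared. The background share under this overlap was not counted. The direction of each changed count or share follows by construction from the larger window, the smaller window or the stricter choice. How a count stands to its background does not. The telencephalon background lay below the members' interval with 5 kb gene ends and above it for the gene body alone. The MGE background lay inside the members' interval at both settings. Setting aside peaks at the end of another protein-coding gene was chosen after seeing the data and left 8, 15 and 8 members in MGE, telencephalon and both lists, the last 10.3% beside 8.17% of all protein-coding genes. No paired analysis was possible because each tissue had a single CTCF library. With no replicates, read counts or peak heights, neither depth nor binding strength could be assessed.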
